A study of Mus musculus with 12 samples.

Results

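The right ventricle (RV) was compared with the left ventricle (LV) in mouse hearts that carry no R14del mutation, through 3 RV and 3 LV samples of WT-PLN mice, which were chosen by their sample titles from the 12 samples of the series. The WT-PLN mice are knock-in animals in which the human wild-type phospholamban (PLN) coding sequence was placed in exon 2 of the mouse gene, in a line of mixed 129/Sv-CP and C57Bl/6J origin made with Sox2-Cre mice. The labels give the strain as C57BL/6J and the age as 12-14 weeks, and the methods of the study state that males were used. The other 6 samples, 3 LV and 3 RV, came from mice with the human R14del-PLN sequence, described in the methods as heterozygous. They serve for side-by-side values, and they also enter the filter on low values and the shared estimate of the spread. All of these mice, controls included, therefore express a human PLN coding sequence. Which parts of each ventricle wall were taken, and whether the septum was included, is not given in the sources used here.

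The RV pumps blood to the lungs against a low pressure, and the LV pumps it to the body against a high one. Much of the RV and the outflow tract descends from the second heart field of the embryo, and the LV mainly from the first. Stretch and load induce a program in ventricular myocytes that includes the natriuretic peptide Nppb, skeletal actin Acta1 and the titin-binding protein Ankrd1. The ventricle walls also hold endothelial cells, fibroblasts, smooth muscle and pericytes, and they are lined by endocardium inside and by epicardium outside.

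The sequence before the start of 4 genes is shown because the account of the ventricles turns on them. Nppb, Acta1 and Ankrd1 had lower values in every RV sample than in any LV sample, and Mstn, which encodes myostatin, a secreted inhibitor of muscle growth, had higher ones. Each line gives the 250 bases before the RefSeq start in the build GRCm38.p6, read 5′ to 3′ on the strand of the gene. The places are chr4:147985650-147985899 on the plus strand for Nppb, chr8:123894776-123895025 on the minus strand for Acta1, chr19:36119845-36120094 on the minus strand for Ankrd1 and chr1:53061390-53061639 on the plus strand for Mstn. Capitals mark AGATAA, a site type of the zinc finger factor Gata4, and CATTCC, a site type of the TEAD family. They also mark TATAAA, a core promoter element, and the CArG box, which serum response factor binds. All were searched on both strands.
Nppb: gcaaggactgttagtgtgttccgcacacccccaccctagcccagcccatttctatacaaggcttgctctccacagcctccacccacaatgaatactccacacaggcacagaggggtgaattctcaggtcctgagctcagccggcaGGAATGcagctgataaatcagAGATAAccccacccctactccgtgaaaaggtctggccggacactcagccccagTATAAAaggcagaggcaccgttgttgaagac
Acta1: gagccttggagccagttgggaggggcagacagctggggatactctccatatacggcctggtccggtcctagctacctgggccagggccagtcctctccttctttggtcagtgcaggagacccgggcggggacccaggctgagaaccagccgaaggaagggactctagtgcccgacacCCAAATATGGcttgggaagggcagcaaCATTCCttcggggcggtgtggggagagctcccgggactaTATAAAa
Ankrd1: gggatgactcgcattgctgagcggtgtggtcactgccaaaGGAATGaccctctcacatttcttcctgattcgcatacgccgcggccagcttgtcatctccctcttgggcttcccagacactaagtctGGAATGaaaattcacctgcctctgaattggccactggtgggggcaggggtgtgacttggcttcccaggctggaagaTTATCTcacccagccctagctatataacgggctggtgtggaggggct
Mstn: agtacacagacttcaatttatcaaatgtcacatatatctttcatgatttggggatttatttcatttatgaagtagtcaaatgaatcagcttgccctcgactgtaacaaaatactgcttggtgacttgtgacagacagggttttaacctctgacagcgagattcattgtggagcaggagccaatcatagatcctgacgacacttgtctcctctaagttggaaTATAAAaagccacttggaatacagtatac
The 3 genes lower in the RV each held CATTCC, once in Nppb and Acta1 and 2 times in Ankrd1, and Mstn did not hold it in this window. Of 32851 RefSeq promoters of the same length, 12.6% held CATTCC, 9.99% AGATAA, 12.4% TATAAA and 1.47% a CArG box. The pattern CANNTG (N is any base) was also searched but is not marked. All 4 windows held it, as did 66.2% of promoters. A match describes letters only, and nothing here measured binding. The GENCODE entry of Nppb starts inside its window, at base 147985788, and all marked Nppb sites lie downstream of that start. That of Ankrd1 starts at base 36120099, so the whole Ankrd1 window lies inside the GENCODE gene. The GENCODE entry of Acta1 starts at base 123894751, farther downstream than the RefSeq start, so its marked sites lie farther from that start. For Mstn the GENCODE start, at base 53061640, directly follows the window.

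Expression is given in TPM, the share of all transcripts in a sample that belongs to a gene after correction for gene length, scaled to the same total in every sample. Differences are RV minus LV on the log2(TPM + 1) scale, 3 samples against 3, and this scale understates the fold of genes near 0. Each ± value is the standard error of the fit, whose spread is pooled over all 12 samples, R14del-PLN included, and moderated. Ventricular myosin light chain Myl2 was abundant in every WT-PLN sample (13173, 12807 and 13038 TPM in the LV and 11318, 11089 and 11564 TPM in the RV). The atrial light chains Myl7 (39.4, 0.512 and 299 TPM in the LV and 1.35, 319.9 and 1.46 TPM in the RV) and Myl4 (41.4, 4.85 and 247 TPM in the LV and 9.09, 302 and 7.86 TPM in the RV) were high in LV replicate 3 and RV replicate 2, intermediate in LV replicate 1 and low in the rest, so these samples differ in atrial transcripts whatever their ventricle. The 4 Y-linked genes tested were near 0 in both samples numbered 1, from 0.0159 to 0.191 TPM (Eif2s3y, Ddx3y, Uty and Kdm5d), although the methods state males, in 1 LV and 1 RV sample alike. Without both samples numbered 1, 2 genes were called (Rpl14-ps1 and Gm17374). The labels do not say that the samples of a group came from separate animals. The p values of the fit therefore rest on the spread between samples within the 4 groups, which may be technical. Lung and airway markers summed to 0.653 to 1.77 TPM in the LV and 0.859 to 1.01 TPM in the RV, and none of them passed the filter on low values.

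TPM are shares, so the more of the total some transcripts hold, the less is left for the rest. Mitochondrially encoded genes held 46.6%, 47.3% and 44.0% of all TPM in the 3 LV samples and 52.7%, 51.2% and 48.7% in the 3 RV samples, without overlap, a difference of 4.89 percentage points (two-sided exact permutation test, p = 0.1, the smallest that 3 samples against 3 allow). The median difference over the 12526 tested genes was -0.17 in the deposited values, and 14.1% of genes had a positive difference. After each sample was scaled to the same upper quartile the median was -0.0072 and 47.8% of genes had a positive difference. The deposited values lean towards the LV as a whole, and the cause was not tested. Without mitochondrially encoded genes the median was -0.059 and 34.7% of genes had a positive difference. Upper quartile scaling aligns the samples by design, so its median near 0 is no separate finding. Counts of list members are given as deposited and after upper quartile scaling.

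**Figure D1:**
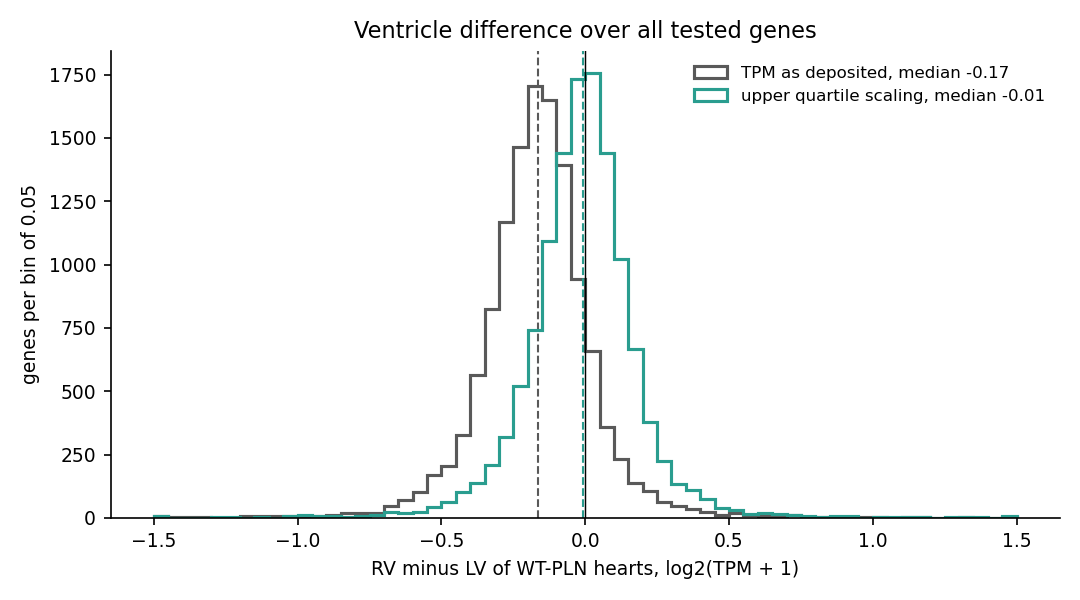
Number of tested genes (vertical axis, per bin of 0.05) by RV minus LV difference in WT-PLN hearts on the log2(TPM + 1) scale (horizontal axis, values beyond 1.5 drawn at the ends). The grey line shows TPM as deposited, with its dashed median of -0.17 to the left of 0, and the green line shows upper quartile scaling, with its median of -0.0072 close to 0.

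No gene was called between RV and LV of WT-PLN hearts when a limma adjusted p up to 0.05 and a 1.5-fold difference were both required (0% of 12526 tested genes). The smallest adjusted p was 0.108, for Icam2. At an unadjusted p under 0.05, 82 genes were higher in the RV (0.655%) and 1729 were lower (13.8%), and after upper quartile scaling 583 were higher (4.65%) and 749 lower (5.98%). All 3 RV samples lay above all 3 LV samples for 122 genes (0.974%), and below them for 3151 (25.2%). At the same unadjusted p, 100 genes were higher and 652 lower without LV replicate 3, and 107 higher and 1125 lower without RV replicate 2. The median difference over all tested genes was then -0.10 and -0.15. Leaving out a sample also weakens the test, and the part of these samples in the lower counts was not tested.

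LV and RV samples with the same replicate number deviated together from their group means, and with that number as a block in the model 12 genes passed the same rule (0.0958% of tested genes), 7 higher and 5 lower in the RV. The 5 lower genes were Nppb, Acta1, Ramp3, Fuca2, which encodes a fucosidase, and Cpxm2, a carboxypeptidase-like gene. The 7 higher genes were Mstn, Rp1, a microtubule-associated gene known from photoreceptors, the predicted gene Gm17374 and the processed pseudogenes Rpl14-ps1, Gm12208, Gm7329 and Gm37239. The blocked limma adjusted p was 0.0017 for Gm7329 and Gm37239, 0.0152 for Gm17374 and from 0.0436 to 0.0473 for the other 9 genes, close to the threshold. Fuca2 was at 65.3, 79.7 and 93.3 TPM in the LV and 34.2, 41.1 and 44.2 TPM in the RV, a difference of -0.97 ± 0.22, with groups apart. Cpxm2 was at 21.7, 54.3 and 52.5 TPM in the LV and 7.08, 23.0 and 20.3 TPM in the RV, a difference of -1.34 ± 0.42, and its groups overlapped because LV replicate 1 was below RV replicate 2. Gm12208, Gm7329 and Gm37239 were listed at 0 in 1 or more LV samples. Fuca2 and Gm37239 also passed with the block after upper quartile scaling. With the number as a random term no gene passed.

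Among genes that respond to load and stretch, Nppb and Acta1 were lower with the replicate block in the deposited values but did not pass with the block after upper quartile scaling, and several others had lower RV values without passing the test. Nppb, the brain natriuretic peptide, was at 242, 99.9 and 121 TPM in the LV and 30.1, 34.4 and 14.2 TPM in the RV. Its lowest LV sample was above its highest RV sample, and the difference was -2.49 ± 0.54 (limma adjusted p = 0.177, 0.0436 with the replicate block). In R14del-PLN hearts the Nppb difference was -2.25 ± 0.54.

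Acta1, the skeletal muscle actin that is part of the fetal program of the heart, was at 129, 197 and 130.2 TPM in the LV and 19.2, 47.3 and 36.6 TPM in the RV. The groups were again apart, with the lowest RV value in replicate 1, and the difference was -2.18 ± 0.52 (limma adjusted p = 0.204, 0.0436 with the replicate block). Ankrd1 was at 947, 1052 and 1464 TPM in the LV and 367, 687 and 504 TPM in the RV, a difference of -1.17 ± 0.39 (limma adjusted p = 0.269). Its relative Ankrd23, which also binds titin, was at 238, 219 and 276 TPM in the LV and 80.8, 127 and 91.9 TPM in the RV, a difference of -1.30 ± 0.40 (limma adjusted p = 0.251). Each of these 3 genes had RV values below every LV value. Myot, a protein of the Z-disc, was at 31.5, 47.7 and 53.1 TPM in the LV and 8.30, 26.4 and 9.98 TPM in the RV and was also apart between the ventricles.

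Nppa, the atrial natriuretic peptide, was less uniform, at 123, 309 and 722 TPM in the LV and 89.1, 213 and 76.6 TPM in the RV. Its groups overlapped, since LV replicate 1 was below RV replicate 2, and LV replicate 3, the highest, was also the LV sample with the most Myl7. The Nppa difference was -1.40 ± 0.64 in WT-PLN hearts and -1.38 ± 0.64 in R14del-PLN hearts (limma adjusted p = 0.34 in WT-PLN hearts). Rcan1, an inhibitor of calcineurin, differed by -0.46 ± 0.14.

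Of the 17 tested natriuretic peptide and fetal program genes, 7 were lower and 0 higher in the RV at an unadjusted p under 0.05 (13.8% of all genes lower), and 6 and 1 after upper quartile scaling (5.98% lower). The median of the list stood -0.24 from that of all genes, and -0.078 in R14del-PLN hearts. Of 39 sarcomere genes, 11 were lower and none higher (13.8% of all genes lower), with a median of -0.10 relative to all genes. After upper quartile scaling 6 were lower and 3 higher, so the lower counts in this list partly followed the scaling. Csrp3, the muscle LIM protein, was -0.41 as deposited and -0.22 after scaling. Of 16 listed skeletal muscle markers, 6 passed the filter on low values. Of these, 3 were lower as deposited (Mybpc2 -1.14 ± 0.37, Ckm -0.32 ± 0.13 and Mylpf -0.39 ± 0.17) and 1 after scaling. The listed markers below the filter reached at most 1.25 TPM in any WT-PLN sample (Pvalb in LV replicate 3). Among them, the myosin genes Myh1, Myh2 and Myh4 reached at most 0.083, 0.022 and 0.0055 TPM. The list, which includes Ckm, summed to 1397 to 1710.0 TPM in the LV and 1200.1 to 1289 TPM in the RV. Its part in the Acta1 and Myot values was not tested.

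**Figure D2:**
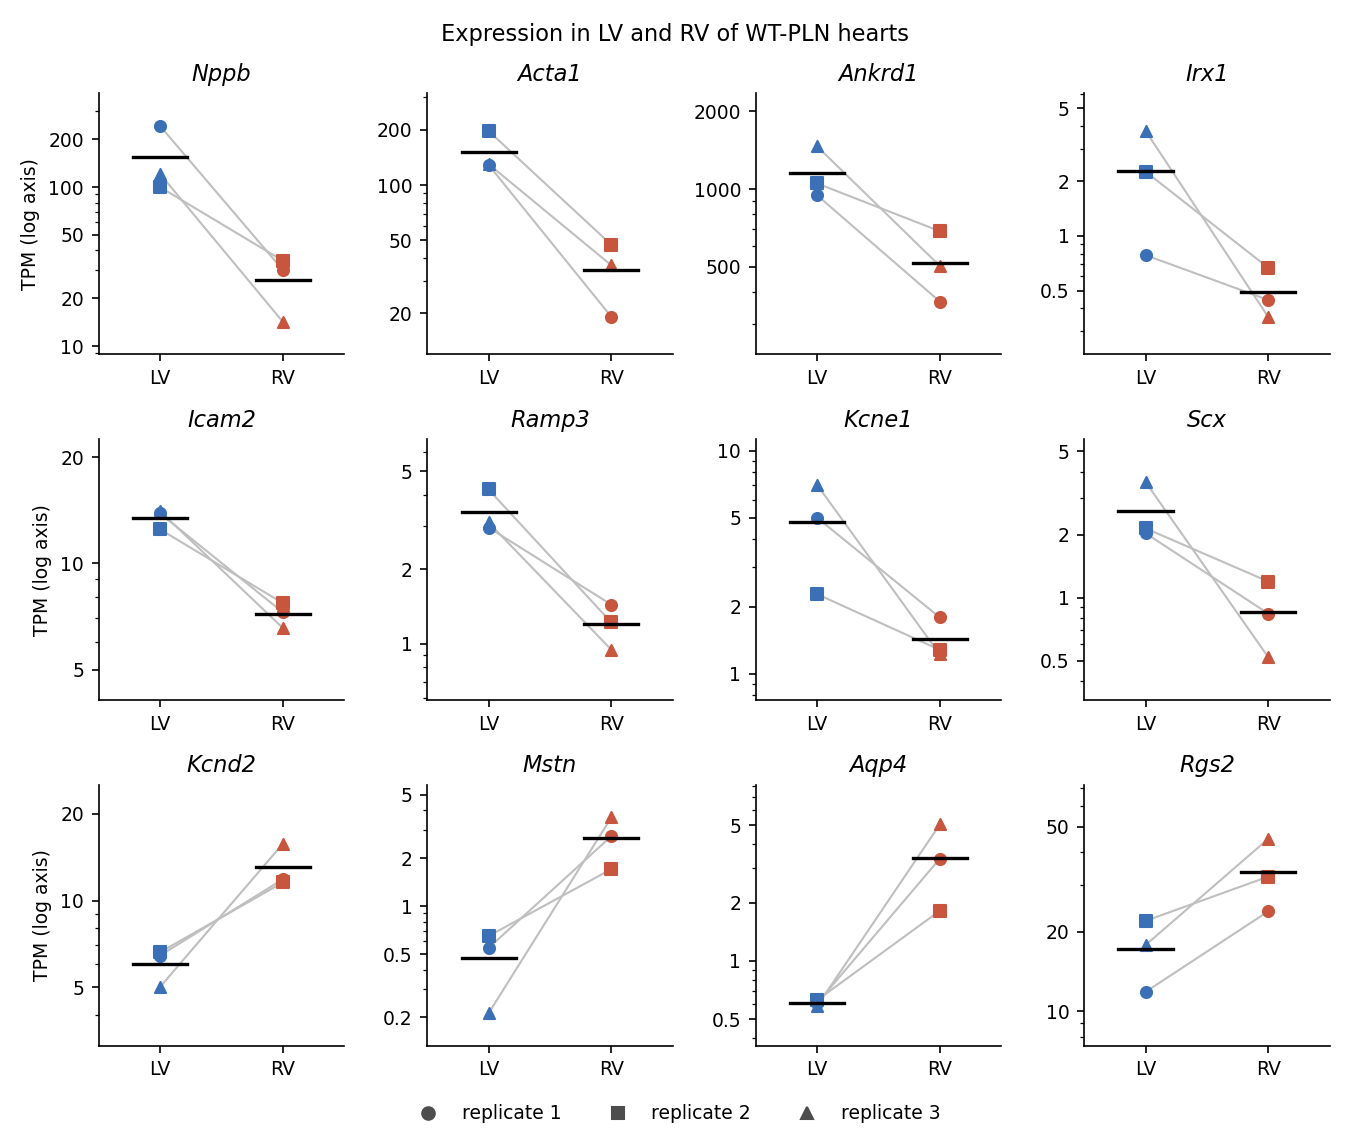
TPM in each LV (blue) and RV (red) sample of WT-PLN hearts for 12 genes, on log axes that differ between panels; marker shapes show the replicate number, grey lines join samples with the same number and black bars are means of 3 samples. In the first 8 panels (Nppb to Scx) every RV sample lies below every LV sample, and in the last 4 (Kcnd2, Mstn, Aqp4, Rgs2) every RV sample lies above.

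Most of the tested genes of the vessel lining had lower values in the RV. Icam2, an adhesion molecule of endothelial cells, lies at chr11:106377656-106388075 on the minus strand (GRCm38) and was at 13.8, 12.5 and 14.0 TPM in the LV and 7.26, 7.71 and 6.55 TPM in the RV. The LV and RV values lay far apart relative to their spread, with a difference of -0.82 ± 0.12 (limma adjusted p = 0.108, 0.0512 with the replicate block) and of -0.54 ± 0.12 in R14del-PLN hearts. Ramp3, which pairs with the calcitonin receptor-like receptor to form adrenomedullin receptors, was at 2.96, 4.22 and 3.10 TPM in the LV and 1.44, 1.22 and 0.943 TPM in the RV. Its difference was -1.0 ± 0.17 (limma adjusted p = 0.131, 0.0436 with the replicate block), and that of Ramp2, of the same family, was -0.51 ± 0.17.

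Rgcc, a cell cycle regulator on the endothelial list, was at 42.0, 40.3 and 37.2 TPM in the LV and 26.6, 26.7 and 20.7 TPM in the RV, a difference of -0.68 ± 0.13. Egfl7, a protein secreted by endothelial cells, differed by -0.63 ± 0.13, Tie1, an endothelial receptor tyrosine kinase, by -0.55 ± 0.12, and Ly6c1 by -0.57 ± 0.15, a gene with a near-identical neighbour in Ly6c2. Nos3, the endothelial nitric oxide synthase, was at 4.76, 6.75 and 7.25 TPM in the LV and 3.26, 4.67 and 3.71 TPM in the RV, a difference of -0.56 ± 0.15. Aplnr, the apelin receptor, differed by -0.55 ± 0.17, while its ligand Apln differed by -0.41 ± 0.18 with overlapping groups. None of these differences passed the adjusted threshold, and all had the same sign after upper quartile scaling.

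Of the 24 tested endothelial markers, 17 were lower and none higher in the RV at an unadjusted p under 0.05 (13.8% of all tested genes were lower), and 10 were lower and none higher after upper quartile scaling (5.98% of all). Their median stood -0.26 from that of all genes as deposited and -0.24 after scaling. In R14del-PLN hearts the corresponding median was -0.19, with 7 of the 24 lower. The summed level of the list was 1876 to 2013 TPM in the LV and 1542 to 1649 TPM in the RV, without overlap (two-sided exact permutation p = 0.1). Without LV replicate 3 and RV replicate 2, the samples with the most Myl7, 12 of the 24 were lower at the same unadjusted p (3.91% of all genes) and the median stood -0.36 from that of all genes. In bulk tissue, fewer cells of a type and less RNA per cell cannot be told apart.

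Red cell transcripts had a lower sum in every RV sample, though 1 of the 6 tested genes was lower at an unadjusted p under 0.05, a share near the 13.8% of all genes, and 0 after upper quartile scaling. They summed to 2089 to 2317 TPM in the LV and 1462 to 1737 TPM in the RV, and Hbb-bs, an adult beta globin, differed by -0.46 ± 0.19. The red cell sum and the endothelial sum moved together between the ventricles, and the part of the one in the other was not tested. Adipocyte markers, which share Fabp4 with the endothelial list, summed to 500.01 to 515 TPM in the LV and 375 to 414 TPM in the RV, with 1 of 10 lower as deposited, and 0 lower and 1 higher after scaling. Of 18 angiotensin, endothelin and vasoactive genes, which include Nos3 and Aplnr, 5 were lower and none higher (13.8% of all genes lower). After upper quartile scaling the counts were 3 and 0 (5.98% lower).

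Other genes among the 10 with the smallest p and RV values below LV values were Klk8 at -0.78 ± 0.14, a serine protease, Slc9a3r2 at -0.61 ± 0.11, a scaffold for membrane transporters, and Kank3 at -0.65 ± 0.12, a gene of the KANK family. Tmem88, a membrane protein that inhibits Wnt signalling, was at 6.95, 6.86 and 5.90 TPM in the LV and 4.76, 3.37 and 3.26 TPM in the RV and Aqp8, a water channel, at 1.10, 2.60 and 2.12 TPM in the LV and 0.374, 0.388 and 0.477 TPM in the RV. The groups were apart in both, with differences of -0.67 ± 0.13 and -1.02 ± 0.20. AU021092 differed by -0.64 ± 0.13. In R14del-PLN hearts the differences were -0.95 ± 0.20 for Aqp8 and -0.60 ± 0.13 for AU021092, close to those of WT-PLN hearts.

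Among the genes higher in the RV, Kcnd2 had the smallest p. It encodes Kv4.2, a pore subunit of the fast transient outward potassium current, lies at chr6:21215503-21729805 on the plus strand, and was at 6.44, 6.61 and 5.01 TPM in the LV and 11.9, 11.6 and 15.7 TPM in the RV. The lowest RV sample was well above the highest LV sample, with a difference of 1.0 ± 0.17 (limma adjusted p = 0.131, 0.0512 with the replicate block), of 1.16 after upper quartile scaling and of 0.71 ± 0.17 in R14del-PLN hearts. Kcnj2, an inward rectifier subunit, was at 6.76, 7.48 and 7.75 TPM in the LV and 11.5, 7.83 and 14.5 TPM in the RV, a difference of 0.52 ± 0.19. Kcnj3, a subunit of the acetylcholine-activated channel that is also an atrial marker, differed by 0.50 ± 0.18, with overlapping groups.

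Other potassium channel subunits were lower in the RV. Kcne1, the accessory subunit of the slow delayed rectifier, was at 5.0, 2.27 and 7.03 TPM in the LV and 1.79, 1.28 and 1.22 TPM in the RV, a difference of -1.16 ± 0.25 (limma adjusted p = 0.177, 0.0512 with the replicate block). Its LV values spread widely, but the groups were apart, and in R14del-PLN hearts the difference was -0.45 ± 0.25. Kcna5, the Kv1.5 pore subunit, was at 7.35, 8.57 and 7.49 TPM in the LV and 4.86, 6.05 and 4.97 TPM in the RV, a difference of -0.49 ± 0.15. In all, 3 of 28 tested potassium channel subunits were higher and 4 lower at an unadjusted p under 0.05 (0.655% and 13.8% of all genes). After upper quartile scaling 6 were higher and 4 lower (4.65% and 5.98% of all genes), so the list moved in both directions.

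Of 30 sodium, calcium and pacemaker channel subunits, 1 was higher and 2 lower (0.655% and 13.8% of all genes). After upper quartile scaling the counts were 2 and 2 (4.65% and 5.98% of all genes). Cacna2d1, the accessory subunit of L-type calcium channels, was at 29.4, 26.8 and 29.5 TPM in the LV and 37.9, 33.9 and 51.5 TPM in the RV, a difference of 0.49 ± 0.17 in WT-PLN hearts and 0.51 ± 0.17 in R14del-PLN hearts. Scn4b, an accessory subunit of the sodium channel, differed by -0.60 ± 0.28, and Cacnb3, a calcium channel beta subunit, by -0.27 ± 0.11. Among gap junction and desmosome genes, Gja5, connexin 40 of the conduction system, was at 2.07, 2.26 and 3.47 TPM in the LV and 1.45, 1.58 and 1.39 TPM in the RV, a difference of -0.52 ± 0.17, and Gjc1, connexin 45, differed by -0.43 ± 0.17. Dsg2, a desmosomal cadherin, was at 13.4, 17.4 and 17.3 TPM in the LV and 18.6, 18.9 and 25.0 TPM in the RV, a difference of 0.35 ± 0.17.

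The conduction list, which includes Kcne1 and Gja5, held 1 higher and 2 lower genes of 13 (0.655% and 13.8% of all genes). The counts were the same after upper quartile scaling (4.65% and 5.98% of all genes). The list summed to 81.7 to 141 TPM in the LV and 82.7 to 99.3 TPM in the RV. The higher gene was Slit2, an axon guidance ligand, at 0.987, 0.998 and 0.497 TPM in the LV and 3.57, 1.63 and 4.76 TPM in the RV. Its RV values spread over a wide range but lay above all LV values, and the difference was 1.18 ± 0.46.

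Transcription factors of chamber identity had no common direction. Of 36 tested, 5 were lower and none higher at an unadjusted p under 0.05, a share near the 13.8% of all genes. After upper quartile scaling 2 were lower and 6 higher (5.98% and 4.65% of all genes). The exceptions in size were 2 Iroquois factors. Irx1 was at 0.785, 2.25 and 3.78 TPM in the LV and 0.445, 0.668 and 0.358 TPM in the RV and Irx2 at 0.780, 1.36 and 3.50 TPM in the LV and 0.512, 0.259 and 0.550 TPM in the RV, with groups apart in both. Their differences were -1.03 ± 0.31 and -0.89 ± 0.29 (limma adjusted p = 0.242 and 0.262), and in R14del-PLN hearts -1.07 ± 0.31 and -0.90 ± 0.29.

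Srf, which binds the CArG box, differed by -0.27 ± 0.12 as deposited and -0.090 after upper quartile scaling. Lbh differed by -0.34 ± 0.15 and overlapped. Tbx5, a regulator of the first heart field, was at 7.01, 6.92 and 8.44 TPM in the LV and 7.05, 7.92 and 7.97 TPM in the RV, Hand2, a regulator of RV formation, at 16.9, 40.5 and 25.8 TPM in the LV and 15.9, 38.4 and 22.2 TPM in the RV, and Irx4, a ventricular Iroquois factor, at 7.15, 7.2 and 8.94 TPM in the LV and 7.06, 5.35 and 7.67 TPM in the RV. The ventricles overlapped for these 3 genes, and Hand2 varied more between the replicate numbers than between the ventricles.

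Of 16 secreted and signalling genes of the outflow tract and chambers, 1 was higher and 3 were lower as deposited (0.655% and 13.8% of all genes). After upper quartile scaling 3 were higher and 0 lower (4.65% and 5.98% of all genes), so the direction of the counts turned with the scaling. The median of the list stood 0.20 from that of all genes. Fgf16, a growth factor of the heart, was at 6.50, 6.90 and 8.20 TPM in the LV and 10.2, 7.52 and 12.1 TPM in the RV, a difference of 0.40 ± 0.18, with overlapping groups. Vegfa, the vascular growth factor, was at 98.4, 85.4 and 102 TPM in the LV and 66.2, 70.5 and 66.2 TPM in the RV, a difference of -0.48 ± 0.18 as deposited and -0.29 after upper quartile scaling, and Bmp4 differed by -0.40 ± 0.16.

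Many matrix and valve genes had lower values in the RV, and LV replicate 3 weighed on them. Scx, the scleraxis factor of tendon and valve, was at 2.03, 2.14 and 3.57 TPM in the LV and 0.838, 1.19 and 0.518 TPM in the RV, a difference of -0.94 ± 0.19 (limma adjusted p = 0.168). Postn, periostin, was at 9.52, 8.54 and 38.7 TPM in the LV and 3.42, 5.14 and 7.27 TPM in the RV, and Prg4, lubricin, at 5.27, 3.41 and 10.3 TPM in the LV and 1.73, 2.47 and 2.66 TPM in the RV. The groups were apart in all of these genes, yet LV replicate 3 stood well above the other LV samples for Postn and Prg4. The Postn difference was -1.38 ± 0.46, and -0.72 without LV replicate 3, and that of Prg4 was -1.06 ± 0.29 and -0.69.

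Of 13 tested valve and cushion markers, 7 were lower and none higher (13.8% of all genes lower), and 6 and 0 after upper quartile scaling (5.98% lower), with a median -0.40 from that of all genes as deposited and -0.45 after upper quartile scaling. Without LV replicate 3, 4 of 13 were lower as deposited (5.21% of all genes) and the median was -0.16. The list summed to 36.1 to 119 TPM in the LV and 22.1 to 37.7 TPM in the RV, with the highest value in LV replicate 3. In R14del-PLN hearts the median stood 0.062 from that of all genes, and 1 of the 13 was lower. Comp, a cartilage and tendon matrix protein, was at 1.40, 1.21 and 6.77 TPM in the LV and 0.416, 0.403 and 1.17 TPM in the RV, and Msx1, a homeobox factor of the valve cushions, differed by -0.57 ± 0.16.

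Of 48 collagen and matrix genes, 15 were lower and none higher (13.8% of all genes lower), and 15 were lower and 1 higher after upper quartile scaling (5.98% lower). Loxl2, which cross-links collagen, was at 3.45, 3.16 and 4.48 TPM in the LV and 2.16, 1.51 and 2.09 TPM in the RV, a difference of -0.68 ± 0.16. Eln, elastin, was at 5.44, 5.32 and 9.34 TPM in the LV and 3.10, 4.24 and 3.04 TPM in the RV, Fbln2, fibulin 2, at 18.4, 23.0 and 25.5 TPM in the LV and 15.3, 14.7 and 14.1 TPM in the RV, and Timp4, an inhibitor of matrix proteases, at 17.6, 17.5 and 14.6 TPM in the LV and 11.8, 10.8 and 9.85 TPM in the RV. All 3 were below their LV values in every RV sample, with differences of -0.76 ± 0.20, -0.56 ± 0.15 and -0.57 ± 0.15. Without LV replicate 3, 8 of the 48 were lower (5.21% of all genes) and the median moved from -0.19 to -0.067 relative to all genes.

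Of 19 smooth muscle and pericyte markers, 6 were lower and none higher (13.8% of all genes lower), and 4 and 0 after upper quartile scaling (5.98% lower). Without LV replicate 3, 2 were lower (5.21% of all genes), and without RV replicate 2, 2 were (8.98%), a share near that of all genes. The list summed to 824 to 1177 TPM in the LV and 708 to 848 TPM in the RV, with overlap. Vtn, vitronectin, which marks cardiac pericytes, was at 8.54, 11.2 and 11.5 TPM in the LV and 6.02, 7.09 and 6.62 TPM in the RV, a difference of -0.58 ± 0.15, and Higd1b differed by -0.52 ± 0.19. Kcnj8, a pore subunit of the ATP-sensitive potassium channel in pericytes, differed by -0.37 ± 0.16 and Mylk, the myosin light chain kinase, by -0.51 ± 0.22. Tagln, transgelin, was at 13.0, 13.2 and 99.9 TPM in the LV and 5.58, 10.6 and 12.2 TPM in the RV, where LV replicate 3 again stood far above the rest.

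Of 20 fibroblast markers 3 were lower and none higher, a share near the 13.8% of all genes, and after upper quartile scaling 3 were lower and 2 higher. The median of the list stood -0.071 from that of all genes. Mfap5, a microfibril protein, was at 17.0, 15.2 and 17.9 TPM in the LV and 8.69, 7.22 and 7.13 TPM in the RV, a difference of -1.03 ± 0.23 (limma adjusted p = 0.191), with LV values close together and far above the RV. Pi16, a marker of a fibroblast subset, differed by -0.65 ± 0.20 and Meox1, a homeobox factor, by -0.77 ± 0.26. In R14del-PLN hearts Mfap5 differed by -0.36 ± 0.23.

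Of the 9 tested markers of the outer layer, 5 had a positive difference as deposited and the rest did not (14.1% of all genes were positive). The 4 described here had the smallest p. Msln, mesothelin, was at 0.0323, 0.358 and 0.305 TPM in the LV and 3.23, 1.43 and 0.795 TPM in the RV, and Upk3b, an uroplakin of mesothelium, at 0.0657, 0.925 and 0.861 TPM in the LV and 2.98, 1.65 and 0.942 TPM in the RV. Gpm6a, a membrane glycoprotein, was at 0.548, 1.13 and 0.968 TPM in the LV and 1.99, 1.38 and 1.78 TPM in the RV, and Nkain4 at 0.119, 0.360 and 0.509 TPM in the LV and 1.59, 0.862 and 0.679 TPM in the RV. All 4 RV groups lay above the LV, mostly at low TPM, with RV replicate 1 the highest for each of them, and the differences were 1.11 ± 0.27, 0.81 ± 0.30, 0.53 ± 0.16 and 0.61 ± 0.21.

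Of the 9 epicardial and mesothelial markers that passed the filter, 4 were higher and none lower at an unadjusted p under 0.05 (0.655% of all tested genes were higher), and the same counts held after upper quartile scaling (4.65% of all). Without both samples numbered 1, 1 of the 9 was higher and the median was 0.46 relative to all genes, against 0.49 with all samples. The summed level of the list overlapped, at 14.1 to 24.1 TPM in the LV and 20.4 to 29.9 TPM in the RV. In R14del-PLN hearts none was higher, with a median of 0.20 relative to all genes and a Msln difference of 0.22 ± 0.27.

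Mstn was at 0.546, 0.649 and 0.212 TPM in the LV and 2.76, 1.71 and 3.62 TPM in the RV. All 3 RV samples exceeded every LV sample at low TPM, and the difference was 1.31 ± 0.23 (limma adjusted p = 0.131, 0.0473 with the replicate block), against 0.50 ± 0.23 in R14del-PLN hearts. Aqp4, a water channel, was at 0.604, 0.627 and 0.584 TPM in the LV and 3.37, 1.81 and 5.05 TPM in the RV, a difference of 1.39 ± 0.29. Cdk6, a kinase of the G1 phase, was at 0.896, 1.12 and 0.708 TPM in the LV and 1.83, 1.83 and 2.02 TPM in the RV, Rp1 at 0.398, 0.779 and 0.930 TPM in the LV and 2.05, 2.32 and 3.08 TPM in the RV, and Zcchc5 at 0.635, 0.524 and 0.704 TPM in the LV and 1.5, 1.42 and 2.64 TPM in the RV. Every RV value of these genes was above every LV value, and the differences were 0.61 ± 0.11, 1.03 ± 0.20 and 0.79 ± 0.16.

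Other genes among the 10 higher in the RV by p are uncertain, because their reads can be shared with near-identical or overlapping genes. Rpl14-ps1, a pseudogene on the opposite strand of Trpm4 with a near-identical copy in Rpl14, was at 2.97, 2.67 and 0 TPM in the LV and 8.62, 31.3 and 33.9 TPM in the RV, while Rpl14 itself was at 176, 171 and 188 TPM in the LV and 148, 123 and 133 TPM in the RV, in the opposite direction. Rps12l1, which has 22 near-identical genes in the annotation, was at 0, 4.19e-07 and 0.0179 TPM in the LV and 18.3, 23.9 and 19.7 TPM in the RV, and Gm17374, on the opposite strand of Esf1, at 14.2, 0 and 0 TPM in the LV and 50.4, 19.5 and 93.5 TPM in the RV. Values of 0 are listings and may be failed estimates. The differences drawn for these genes are on the log2(TPM + 1) scale and are no measure of fold where LV samples are listed at 0. The study states stranded libraries, but whether the reads were counted by strand is not given in the sources used here. The uncertainty about strand also holds for Gm37239, which lies opposite Cenpf, and Gm7329 has a near-identical copy in Me1. Of 121 genes placed in the annotation, 49 overlap a gene on the opposite strand, among them Acta1, Nppa, Ramp3, Scx, Aqp4 and Pln. For 20, including Ankrd23, Rp1 and Gm12208, an overlapping gene lies on the same strand. Near-identical entries also exist for Cdk6, mt-Nd3, mt-Nd2, Ramp2, Loxl2, Isg15 and Atp2a2, whose values are uncertain to that extent.

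Phospholamban and its target had overlapping levels in the ventricles. Pln was at 1708, 1821 and 1875 TPM in the LV and 1707, 1660.2 and 1963 TPM in the RV, a difference of -0.022 ± 0.11 as deposited and 0.17 after upper quartile scaling. Atp2a2, which encodes the calcium pump SERCA2a, was at 2623, 2929 and 3361 TPM in the LV and 2698, 2719 and 3464 TPM in the RV, a difference of -0.0078 ± 0.16 as deposited and 0.19 after scaling. How reads from the human coding sequence were assigned to Pln is not given in the sources used here.

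Sln, sarcolipin, a relative of phospholamban that is mostly atrial, was at 3.62, 0.0547 and 27.8 TPM in the LV and 0.101, 36.9 and 0.301 TPM in the RV. Its high samples, LV replicate 3 and RV replicate 2, were also those with the highest Myl7 and Myl4. The difference of -0.46 ± 1.30 was smaller than its error.

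Among 35 genes of calcium cycling in the sarcoplasmic reticulum, 5 were lower and none higher in the RV at an unadjusted p under 0.05, a share near the 13.8% of all genes. After upper quartile scaling 2 were lower and 5 higher (5.98% and 4.65% of all genes), so the list had no direction independent of the scaling. S100a1, a calcium-binding partner of the calcium pump and release channel, was at 654, 681 and 745 TPM in the LV and 518, 550.1 and 518 TPM in the RV, a difference of -0.39 ± 0.13. Fkbp1a, a subunit that binds calcium release channels, and Sri, sorcin, differed by -0.33 ± 0.11 and -0.37 ± 0.15. Each of these 3 had RV values below every LV value.

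In PKA and adrenergic signalling, 2 of 43 genes were higher and 5 lower (0.655% and 13.8% of all genes), and 9 and 2 after upper quartile scaling (4.65% and 5.98%). Rgs2, which shortens signalling through Gq-coupled receptors, was at 11.8, 22 and 17.8 TPM in the LV and 23.9, 32.4 and 45.0 TPM in the RV, a difference of 0.93 ± 0.24 (limma adjusted p = 0.217) and of 0.23 ± 0.24 in R14del-PLN hearts. Its RV values exceeded all LV values, by a narrow margin between LV replicate 2 and RV replicate 1. Rgs4 differed by -0.44 ± 0.16, Prkar1a, a regulatory subunit of PKA, by -0.38 ± 0.16 and the G protein gene Gnai2 by -0.31 ± 0.13.

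Of the 13 mitochondrially encoded genes, 12 had a positive difference, and mt-Nd3, a subunit of complex I, was the single one at an unadjusted p under 0.05. It was at 3259, 3553 and 2953 TPM in the LV and 4462, 5265 and 4498 TPM in the RV, a difference of 0.54 ± 0.13 (limma adjusted p = 0.204), and mt-Nd2 differed by 0.22 ± 0.12. For 30 of 45 nuclear-encoded respiratory chain genes every RV sample lay below the LV (25.2% of all tested genes). The median of the list, however, stood -0.0079 from that of all genes as deposited and 0.029 after upper quartile scaling. The complex I genes Ndufa2, Ndufs7, Ndufb9 and Ndufb5 differed by -0.37 ± 0.13, -0.34 ± 0.12, -0.26 ± 0.11 and -0.26 ± 0.12, and after upper quartile scaling none of the 45 was lower at an unadjusted p under 0.05.

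Pfkfb1, an enzyme that sets the level of the glycolysis activator fructose 2,6-bisphosphate, was at 9.75, 10.2 and 10.1 TPM in the LV and 21.0, 14.9 and 25.1 TPM in the RV, with every RV sample above the LV. The difference was 0.92 ± 0.22 in WT-PLN hearts (limma adjusted p = 0.204) and 0.61 ± 0.22 in R14del-PLN hearts. Ppp1r3c, a glycogen-targeting phosphatase subunit, differed by -0.51 ± 0.17 and Pfkp, a phosphofructokinase, by -0.57 ± 0.21. In glycolysis and glycogen, 1 of 30 genes was higher and 3 lower (0.655% and 13.8% of all genes), and 5 and 2 after upper quartile scaling (4.65% and 5.98%). Of 37 genes of fatty acid uptake and oxidation, 2 were lower, namely Bdh1, a ketone body enzyme (-0.85 ± 0.37), and Fabp4, a fatty acid-binding protein of capillaries and adipocytes (-0.36 ± 0.15), and none was higher, against 13.8% of all genes lower. After upper quartile scaling 2 were higher and 0 lower, and the median of the list stood 0.12 from that of all genes as deposited.

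Immediate early genes spread widely between samples. They summed to 293 to 1046 TPM in the LV and 282 to 858 TPM in the RV, and 4 of 31 were lower, Jund (-0.59 ± 0.15), Jun (-0.58 ± 0.19), Gadd45g (-0.45 ± 0.15) and Gadd45b (-0.59 ± 0.22), a share near the 13.8% of all genes, and 2 after upper quartile scaling. Without LV replicate 3 the median of the list turned from -0.15 to 0.14 relative to all genes. Of 36 heat shock and endoplasmic reticulum chaperone genes, 7 were lower and none higher (13.8% of all genes lower). After upper quartile scaling the counts were 2 and 1 (5.98% and 4.65% of all genes). Hspb7, a small heat shock protein of the sarcomere, was at 963, 962 and 1099 TPM in the LV and 676, 721 and 701 TPM in the RV, a difference of -0.52 ± 0.16, Chac1 differed by -0.59 ± 0.21, Creld2 by -0.35 ± 0.14 and Atf4, a factor of the integrated stress response, by -0.46 ± 0.19. Of 18 clock genes, Bhlhe40 (-0.53 ± 0.21) was the single one at an unadjusted p under 0.05, and after upper quartile scaling 3 were higher and 1 lower.

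Interferon-stimulated and complement genes had a median of -0.13 relative to all genes, with 2 of 20 lower at an unadjusted p under 0.05 (13.8% of all genes) and 10 below the LV in every RV sample (25.2% of all genes). After upper quartile scaling 2 were lower and 1 higher. Oasl2 was at 2.50, 1.55 and 2.30 TPM in the LV and 1.10, 1.09 and 1.28 TPM in the RV and Isg15 at 2.31, 1.91 and 2.13 TPM in the LV and 0.898, 1.19 and 1.37 TPM in the RV, with differences of -0.52 ± 0.16 and -0.54 ± 0.18. In R14del-PLN hearts these were -0.013 ± 0.16 and 0.19 ± 0.18. Myeloid markers held 1 lower gene of 22, C1qb (-0.48 ± 0.22), and 0 after scaling, and summed to 346 to 558 TPM in the LV and 288 to 379 TPM in the RV. Of the other marker lists, atrial markers held 2 higher and 2 lower of 13 (2 and 1 after scaling), with Angpt1, an endothelial growth factor, at 0.70 ± 0.26 and Clu, clusterin, at -0.58 ± 0.16. The endocardial list held 1 lower gene of 10, Emcn (-0.39 ± 0.14), and the lymphocyte and Schwann lists 1 each, Ighm (-0.39 ± 0.17) and Stmn2 (-0.38 ± 0.14). After scaling the counts were 0, 0 and 1.

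**Figure D3:**
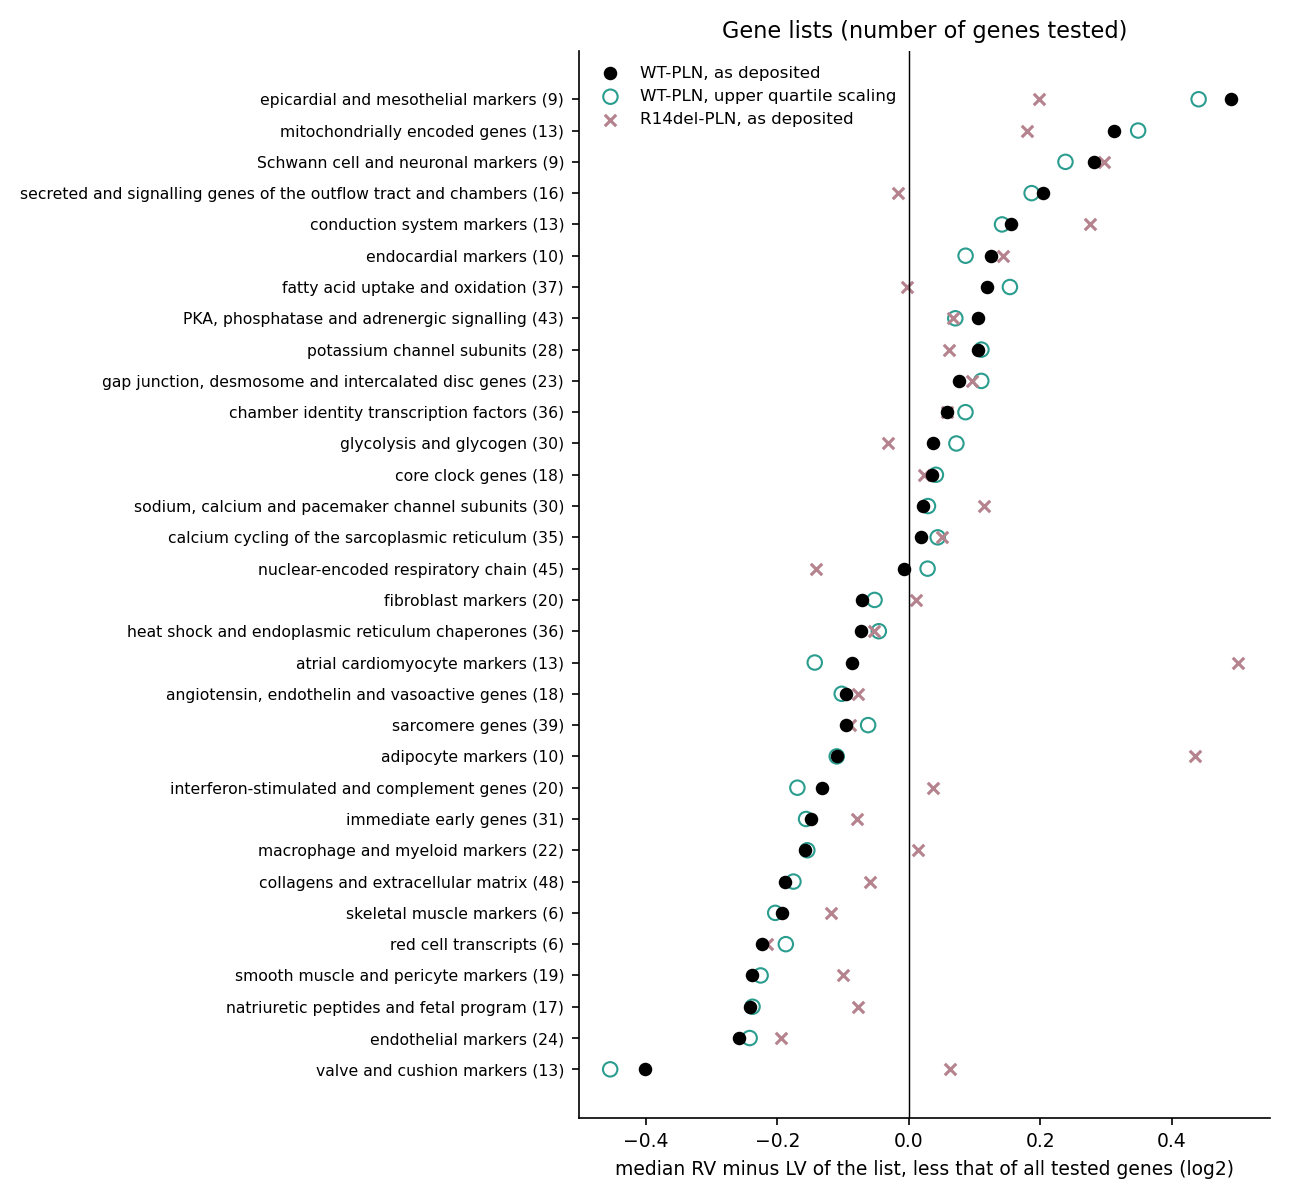
Median RV minus LV difference of each gene list less the median of all tested genes (horizontal axis, log2), for lists with at least 5 tested genes (numbers in parentheses). Black points show WT-PLN hearts as deposited, green circles WT-PLN hearts after upper quartile scaling and crosses R14del-PLN hearts; valve markers stand lowest at -0.40 and epicardial markers highest at 0.49 in WT-PLN hearts, and scaling moves both little.

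The same contrast in R14del-PLN hearts uses 6 other samples. There too no gene was called (0%), and at an unadjusted p under 0.05, 63 genes were higher in the RV (0.503%) and 760 lower (6.07%). Of the 10 genes with the smallest p and lower RV values in WT-PLN hearts, 10 had the same sign in R14del-PLN hearts and 10 an unadjusted p under 0.05, with non-overlapping groups in all 10. Of the 10 with higher RV values, 9 had the same sign, 5 an unadjusted p under 0.05 and 5 non-overlapping groups, and Gm17374 had the opposite sign. Over all 12526 genes, 75.7% had the same sign in both genotypes (70.1% after upper quartile scaling). In R14del-PLN hearts, 795 of all tested genes had that same sign with an unadjusted p under 0.05. Of the 3273 genes with non-overlapping groups in WT-PLN hearts, 699 were apart in the same direction in R14del-PLN hearts. The smallest limma adjusted p of these 20 genes in R14del-PLN hearts was 0.711. All 20 differences were smaller in R14del-PLN hearts than in WT-PLN hearts, where the genes had been chosen for their small p. Both contrasts share the estimate of the spread of each gene, so their p values are not independent. The counts by p are therefore no independent support.

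**Figure D4:**
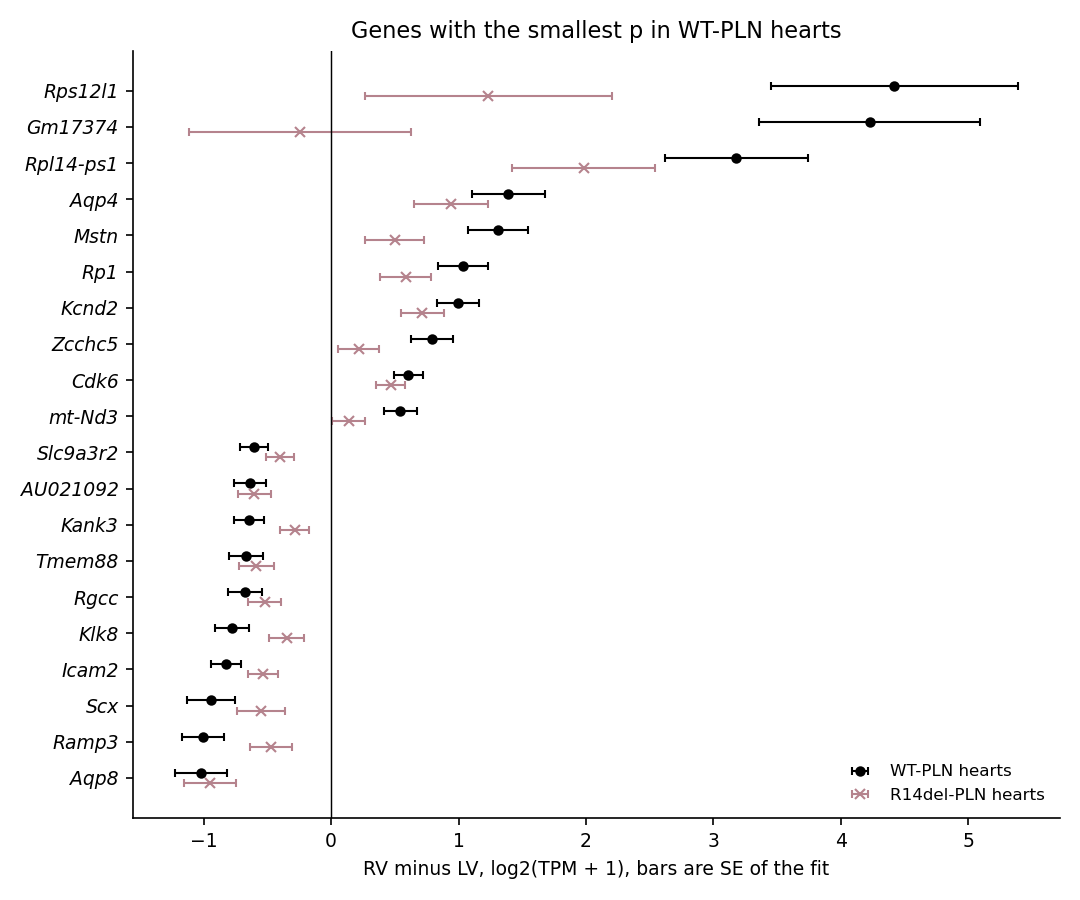
RV minus LV differences on the log2(TPM + 1) scale (horizontal axis) of the 20 genes with the smallest p in WT-PLN hearts, 10 in each direction. Black points are WT-PLN hearts and crosses are R14del-PLN hearts, with bars of 1 SE of the fit; the 10 genes lower in the RV of WT-PLN hearts lie left of 0 in both genotypes, and Gm17374 changes sides.

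No gene had an interaction of ventricle and genotype (0 called by limma, 127 at an unadjusted p under 0.05, smallest adjusted p 0.9999), so no ventricle difference was shown to depend on the genotype. Gm16232, Gm11037, Prr3, Fam60a and Gm17374 had the 5 lowest p values for it. The ventricle difference of Prr3 was -0.46 ± 0.12 without the mutation and 0.19 ± 0.12 with it, and that of Fam60a, a subunit of a histone deacetylase complex, was -0.72 ± 0.15 and 0.10 ± 0.15. The differences of Gm16232 and Gm11037 were 0.52 ± 0.33 and 1.32 ± 0.58 in WT-PLN hearts, where most of their LV samples were listed at 0.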

How the data were processed

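Sequencing of stranded polyA RNA libraries covered both ventricles of WT-PLN and R14del-PLN mice (12 samples, 3 per group). The authors mapped the reads in CLC Genomics Workbench, with GRCm38 as the reference. The authors deposited TPM values, a share of all transcripts corrected for gene length. Not given in the sources used here are the program, the annotation and the strand setting behind the deposited TPM. TPM keep no read numbers, so depth and counting error are unknown, and no depth limit could be set.

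Groups and replicate numbers came from the sample titles. The 12526 genes whose mean reached 0.5 TPM across the series were tested on log2(TPM + 1) in a model of 4 group means with limma 3.58.1 (R 4.3.3). Variances were moderated along a trend with expression, which added 5.15 prior to the 8 residual degrees of freedom, and p values were adjusted over all tested genes by the Benjamini-Hochberg method. Called genes had an adjusted p no higher than 0.05 and differed by 1.5-fold or more, as in the study. Single shares and summed levels were compared by exact permutation. The replicate number was tried as a fixed block and as a random block (statmod 1.5.0, consensus correlation 0.0885). In WT-PLN hearts the deviations from the group means correlated at 0.657, 0.321 and 0.457 between LV and RV samples of one number, and from -0.457 to 0.000824 between different numbers, so by the rule used here the numbers pair the samples. Deviations from a group mean cancel within the group, so the correlations between different numbers are no separate evidence of pairing. The labels do not state the pairing. In R14del-PLN hearts the correlations were 0.389, 0.230 and 0.0542. The script was checked on simulated data.

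Members, lists and tests were chosen with earlier results of these data known. Genes were named by a rule: called genes, or where fewer were called the 10 with the smallest p in each direction, Pln, Atp2a2 and Sln, up to 4 per list by p, and the 5 with the smallest interaction p. Some genes that the rule names are not reported here. Fuca2, Cpxm2, Gm12208, Gm7329, Gm37239, Myl2, Myl7, Myl4, Tbx5, Hand2, Irx4, Tagln, Comp, Rpl14, Gm21961 and RP23-263O15.12 were named after their values were seen. Myl2, Myl7, Myl4, Tbx5, Hand2, Irx4, Tagln, Comp and Rpl14 were not recomputed under the alternatives and are given as levels. Gene places are from GENCODE vM21 (GRCm38), and near-identical copies were transcripts with at least 95% identity over 80% of the shorter, among transcripts of at least 200 bases, so shorter pseudogenes such as Gm12208 and Gm37239 were not searched (BLAST 2.17.0). Figures used Python 3.11.15 with matplotlib 3.10.9. The alternatives are given in the closing section.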

Additional observations from a re-analysis of the deposited data

How the results depend on the processing

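No gene was called in the WT-PLN comparison as reported, and the alternatives are given against that count. With the fixed replicate block 12 genes were called, with the random block 0, without a filter on low values 1 (Icam2), without mitochondrially encoded genes 2 (Icam2 and Kcnd2), in the 6 WT-PLN samples alone 1 (Rps12l1), and without both samples numbered 1 there were 2 (Gm17374 and Rpl14-ps1). Leaving out 1 WT-PLN sample gave 0 to 2 calls: Gm17374 without LV replicate 1, Kcne1 and Gm21961 without LV replicate 2, and RP23-263O15.12 without RV replicate 3. The other scalings, pseudocounts, filters and fold thresholds, and the added fit without the 2 samples with the most Myl7, gave 0. Fits added after the data were seen, all with the replicate block, gave 4 calls after quantile normalization, 2 after upper quartile scaling, 3 without mitochondrially encoded genes, and 74, 156 and 43 without the pair numbered 1, 2 and 3. Of the 12 blocked calls, 12, 12 and 11 were among those, and 2, 2 and 3 under the scalings. The causes were not tested.

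At an unadjusted p under 0.05, the split of higher and lower genes was 718 and 662 after quantile normalization and 271 and 1002 without mitochondrially encoded genes, against 82 and 1729 as deposited. In R14del-PLN hearts 0 genes were called, and leaving out 1 sample gave 0 to 1. The interaction had 0, and 0 to 1 with 1 sample left out. With the replicate block, paired samples changed neither of these counts.

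The sign turned in some alternatives for Pln and Atp2a2, whose reported differences were -0.022 and -0.0078, and for Sln. For Pln and Atp2a2 it was 0.085 and 0.094 after quantile normalization, 0.17 and 0.19 after upper quartile scaling and 0.11 and 0.13 without mitochondrially encoded genes, with or without the replicate block. It was 0.054 and 0.14 without the 2 samples with the most Myl7, and 0.033 and 0.042 with the block and without the pair numbered 2. Sln stood at 0.35 without both samples numbered 1, with or without the block, and 1.55 with the block and without the pair numbered 3. Leaving out 1 WT-PLN sample gave differences of -0.10 to 0.025 for Pln, -0.13 to 0.085 for Atp2a2 and -2.12 to 0.78 for Sln. The other 120 of the 123 genes recomputed kept their direction in every alternative run. Depth is unknown from TPM.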
